A study of Mus musculus with 4 samples.

Results

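The transcription factors Pax7 and Pax3, their binding protein Paxbp1 and 7 surface proteins of muscle stem cells (Vcam1, Cd34, Calcr, Cxcr4, Megf10, Ncam1 and Alcam) were followed in differentiating muscle cells that lack Rspo1. These 10 genes were chosen by name, for their place in satellite cell identity and surface, and all 10 were found among the 24011 genes of the deposited table. Myocytes from Rspo1-null mice and from wild-type mice were compared by microarray (Affymetrix Mouse Gene 2.1 ST), each genotype with 2 arrays, called Rspo1-null 1 and 2 and wild-type 1 and 2 after their labels. All animals were of the strain background C57bl6N/sv129, and the study's methods describe its mice as several weeks old. In both genotypes the cells came from limb muscles, were expanded as primary myoblasts in medium rich in serum with bFGF and were then kept for 24 h in DMEM with horse serum, without any further agent. Satellite cells were purified by magnetic sorting before expansion according to the paper, which also counts heterozygous animals among its controls, whereas the labels speak of wild-type. The arrays come from separate cultures, 2 per genotype, numbered as replicates by the labels. Where no block is named, the p-values given here set a difference against the spread between these cultures. In limma the spread of each gene is drawn toward that of all genes, so its standard errors are not the gene's own spread alone. In each genotype the spread between cultures includes the contrast of an array with the RNA Xist and an array without it, described below.

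Satellite cells are the stem cells of adult skeletal muscle. Pax7 marks them and their proliferating progeny, the myoblasts, and its transcript is lost as cells turn on myogenin and differentiate, while Pax3, its close relative, acts mainly in embryonic muscle progenitors and persists in a part of adult satellite cells. The surface proteins hold the cell in its niche, receive signals there and serve to sort satellite cells, and several of them are shared with endothelial, blood or mesenchymal cells. Rspo1 was of interest here because the study examined it as a target of Pax7.

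Values are log2 intensities, and a background level of 4.69 was taken from 1370 olfactory and vomeronasal receptor genes, as the 95th percentile of their means. All 6 defining markers of myogenic cells (Myod1, Myf5, Myog, Des, Cdh15 and Itga7) lay above it, with Myod1 at 10.07 and 10.34 in the Rspo1-null arrays and 10.07 and 9.87 in the wild-type arrays. Of the markers of other cell types that carry these surface proteins, 5 of 9 of fibroblasts, 1 of 8 of endothelium, 2 of 8 of blood cells, 1 of 5 of Schwann cells and 4 of 7 of pericytes and smooth muscle had means above it. Dcn, Lum and Pdgfra of fibroblasts, Pecam1 and Cdh5 of endothelium, Ptprc of blood cells and Sox10 of Schwann cells lay below it in every array, whereas Col3a1 of fibroblasts had 7.82 and 7.09 in the Rspo1-null arrays and 7.16 and 7.61 in the wild-type arrays. Rspo1 had 5.29 and 5.33 in the Rspo1-null arrays, against 5.71 and 5.84 in the wild-type arrays, all above background, and the position of its probes relative to the deletion is unknown here, which leaves the labels checked only partly. The paper reports lower MyoD expression in Rspo1-null cells by qRT-PCR. In these arrays Myod1 differed by 0.23 with Rspo1-null on top (standard error 0.18, unadjusted p = 0.249 from limma). Whether the labels of 2 arrays were exchanged between the genotypes cannot be told from these values, and every genotype difference below rests on the labels as given. Xist, the RNA that coats the inactive X chromosome of females, was at 10.38 and 10.39 in Rspo1-null 1 and wild-type 2 and at background in the other arrays, which instead carried Y-linked transcripts. Each genotype thus holds 1 array with Xist and 1 without, and differences within these pairs are given for the genes above background. No gene of the array passed an adjusted p of 0.05 between the genotypes in limma or in the test that the study's methods name, and 760 (limma) and 1139 (methods' test, 4.74% of all genes) had an unadjusted p under 0.05.

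**Figure D1:**
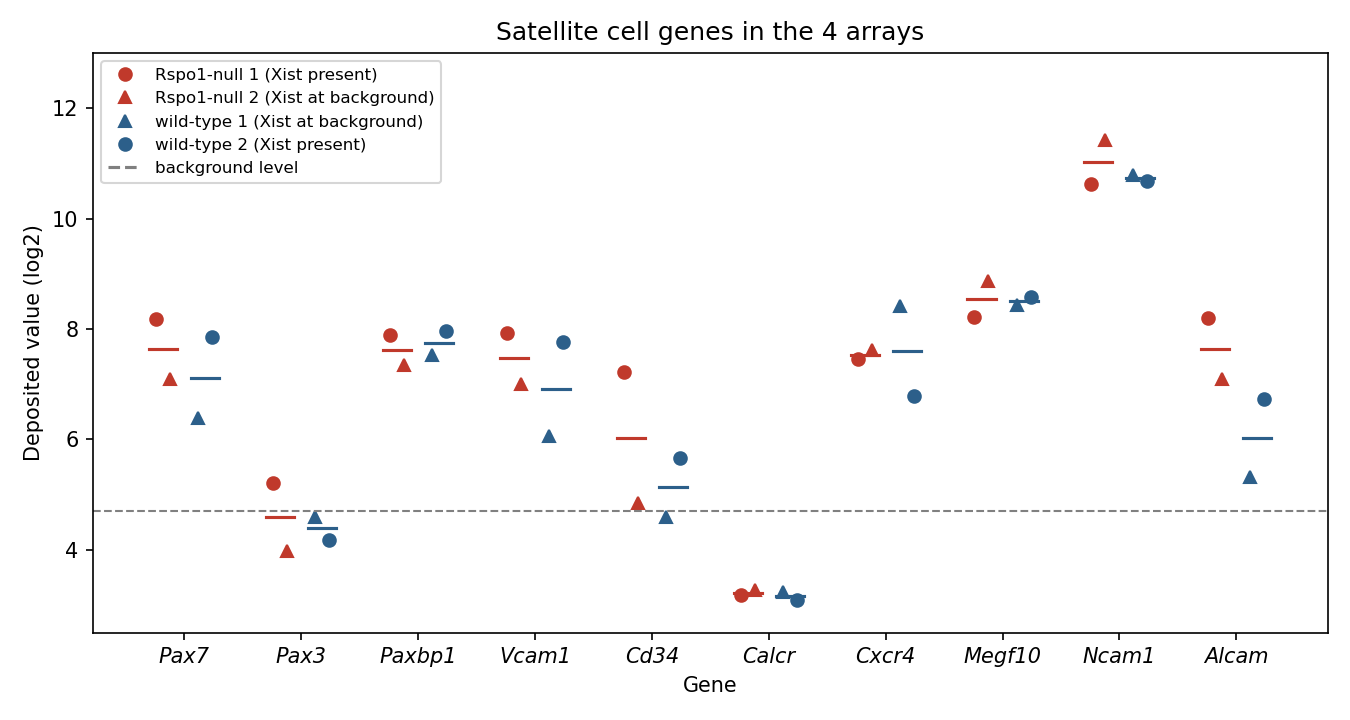
Deposited log2 values (vertical axis) of the 10 genes in each array, with Rspo1-null to the left of wild-type, horizontal bars at the mean of 2 arrays and a dashed line at the background level of 4.69. Circles are the arrays with Xist and triangles those without. Alcam is the only gene whose Rspo1-null values both lie above its wild-type values, and Calcr and all but 1 array of Pax3 lie below the dashed line.

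The promoters of 4 genes are shown first, since Pax7, Cd34 and Alcam were each highest in Rspo1-null 1 and lowest in wild-type 1, while Cxcr4 had its highest value in wild-type 1. RefSeq promoters of the build GRCm38.p6 were found for 6 of the 10 genes, each with 250 bases before and 50 bases after the annotated start, and Vcam1, Ncam1, Pax3 and Megf10 had none in that table. The windows are chr4:139832919-139833218 on the minus strand for Pax7, chr1:194938571-194938870 on the plus strand for Cd34, chr16:52453032-52453331 on the minus strand for Alcam and chr1:128592250-128592549 on the minus strand for Cxcr4. They are written 5′ to 3′ along the gene, and capitals mark the E-boxes CAGCTG and CAGGTG, which are bound by MyoD and other basic helix-loop-helix factors, and the TATA box TATAAA, on either strand.
Pax7: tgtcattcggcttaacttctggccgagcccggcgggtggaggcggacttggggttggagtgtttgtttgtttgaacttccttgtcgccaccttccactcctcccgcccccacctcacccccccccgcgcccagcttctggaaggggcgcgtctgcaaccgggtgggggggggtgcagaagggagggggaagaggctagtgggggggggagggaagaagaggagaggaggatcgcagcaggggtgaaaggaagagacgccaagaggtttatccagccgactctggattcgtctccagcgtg
Cd34: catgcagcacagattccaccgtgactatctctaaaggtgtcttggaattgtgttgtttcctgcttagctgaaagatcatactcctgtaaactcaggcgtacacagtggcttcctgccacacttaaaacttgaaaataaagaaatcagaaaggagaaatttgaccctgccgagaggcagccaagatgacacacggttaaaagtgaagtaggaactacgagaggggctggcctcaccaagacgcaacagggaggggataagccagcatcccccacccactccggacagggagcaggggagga
Alcam: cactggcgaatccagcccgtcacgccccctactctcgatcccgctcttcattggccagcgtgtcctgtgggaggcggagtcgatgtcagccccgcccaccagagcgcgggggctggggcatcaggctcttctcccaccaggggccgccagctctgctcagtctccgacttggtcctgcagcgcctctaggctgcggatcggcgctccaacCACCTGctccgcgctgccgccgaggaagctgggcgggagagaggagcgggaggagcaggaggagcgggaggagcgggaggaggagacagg
Cxcr4: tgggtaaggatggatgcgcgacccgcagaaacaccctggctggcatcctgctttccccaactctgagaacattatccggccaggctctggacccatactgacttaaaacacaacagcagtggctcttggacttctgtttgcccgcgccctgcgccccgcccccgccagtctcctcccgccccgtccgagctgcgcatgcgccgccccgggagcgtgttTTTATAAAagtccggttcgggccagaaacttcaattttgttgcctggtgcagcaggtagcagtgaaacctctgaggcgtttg

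Among these 4 windows, only that of Alcam held an E-box of either form, as CACCTG, the reverse complement of CAGGTG, 40 bases before the start. The letters CAGGTG on either strand occur in 20.2% of 32851 promoters of the same length and CAGCTG in 16.3%. No window of the 4 held another E-box of the general form CANNTG, which 72.3% of promoters hold. Only the Cxcr4 window held TATAAA, in a stretch that begins 32 bases before the start and matches on both strands with overlap, against 13.6% of promoters. The TCF/LEF letters CTTTGAA and CTTTGAT (5.14% and 3.73% of promoters) and the palindromic site of paired homeodomains (0.39%) occurred in none of the 4. The share of G and C was 63.7% for Pax7, 50% for Cd34, 69.7% for Alcam and 59.3% for Cxcr4.

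Pax7, the paired box factor that maintains satellite cells, had log2 values of 8.17 and 7.10 in the Rspo1-null arrays, against 6.38 and 7.85 in the wild-type arrays. The groups overlapped, since wild-type 2 lay between both Rspo1-null arrays, and all 4 values were above background. Its mean was 7.64 ± 0.76 in Rspo1-null and 7.11 ± 1.04 in wild-type cells (SD, n = 2 each). The genotypes differed by 0.52 on the log2 scale, with Rspo1-null on top (standard error 0.61, adjusted p = 0.999 from limma), which is smaller than the spread between cultures of one genotype. Rspo1-null 1 exceeded wild-type 2 by 0.33 in the pair with Xist, and Rspo1-null 2 exceeded wild-type 1 by 0.72 in the other pair. With these pairs as a block, under which 5.35% of all genes had an unadjusted p under 0.05, that of Pax7 was 0.0375 and the adjusted p 0.814 from limma. The difference turned to -0.21 without wild-type 1 and to -0.01 without Rspo1-null 1.

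Pax3, the relative of Pax7 that acts in embryonic limb progenitors, had 5.21 and 3.99 in the Rspo1-null arrays and 4.60 and 4.18 in the wild-type arrays. Only Rspo1-null 1 lay above background, and since both genotype means (4.60 and 4.39) lay below it, no fold is given. The other genes of the Pax family, Pax1, Pax2, Pax4, Pax5, Pax6, Pax8 and Pax9, all lay below background, with means between 3.59 and 3.99.

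Paxbp1, which links Pax3 and Pax7 to the histone methyltransferase complex built on Wdr5, had 7.88 and 7.35 in the Rspo1-null arrays, against 7.53 and 7.96 in the wild-type arrays. The groups overlapped, and the difference, Rspo1-null minus wild-type here and below, was -0.13 (standard error 0.26, adjusted p = 0.999 from limma), with -0.07 in the Xist pair and -0.18 in the other pair. The study selected Paxbp1 for display from these same arrays, so it is no independent choice. Among 7 genes that work with Pax7 on chromatin, namely Wdr5, Ash2l, Rbbp5, Dpy30, Kmt2a, Kmt2d and the arginine methyltransferase Carm1, 0 passed an unadjusted p of 0.05 in either direction. Their median difference was 0.03, against -0.03 for all genes tested.

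Of the 10 genes, 1 passed an unadjusted p of 0.05 in limma, where 3.17% of all genes did (1.2% as higher and 1.97% as lower in Rspo1-null), and 0 passed an adjusted one, as for all genes. That gene was Alcam, the activated leukocyte cell adhesion molecule, an immunoglobulin superfamily receptor that binds itself and Cd6. Alcam had 8.20 and 7.09 in the Rspo1-null arrays, against 5.33 and 6.74 in the wild-type arrays. Both Rspo1-null values lay above both wild-type values, although the nearest of them, Rspo1-null 2 and wild-type 2, were close. Groups that do not overlap, as in 1 of the 10 genes, were found in 31.2% of all genes, and in 12.1% with Rspo1-null above. The log2 difference was 1.61 (standard error 0.61), or 3.06-fold on the linear scale, with an unadjusted p of 0.0484 and an adjusted p of 0.999 from limma. It was alike in both pairs, at 1.46 in the Xist pair and 1.76 in the other pair. With the pairs as a block the unadjusted p was 0.000467 and the adjusted p 0.814 from limma (standard error 0.16). These pairs were read from the same arrays, and the block leaves every gene little spread to estimate. Small unadjusted p-values under it therefore carry little weight. Paired by replicate number instead, the arrays gave unequal differences, with Rspo1-null 2 close to wild-type 2.

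The unadjusted call of Alcam was lost in the methods' test, with the replicate number as a block, where 1.67% of all genes passed, and when dim genes were left out. The unadjusted p from limma was 0.1 with the replicate block and 0.0508 without dim genes. Without wild-type 1 the difference was 0.91 and without Rspo1-null 1 it was 1.06, while it was 2.32 without wild-type 2 and 2.17 without Rspo1-null 2. Fits that leave 1 array in a genotype are given without p-values, since that genotype then has no spread of its own. Alcam is also carried by fibroblasts, and the summed level of 9 fibroblast markers was 8.79 and 8.32 in the Rspo1-null arrays and 8.32 and 8.48 in the wild-type arrays (log2 of the sum). These sums overlapped between genotypes. Of the 9 markers, only 5 of which lay above background, 8 had a higher mean in Rspo1-null cells, as did 10768 of all 24011 genes. The median difference of the 9 markers was 0.15, and 0 passed an unadjusted p of 0.05 in limma. The groups of Cd248, which lay above background, and of Lum, which lay below it, did not overlap and were higher in Rspo1-null cells. The part of fibroblasts in the Alcam values was not tested.

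**Figure D2:**
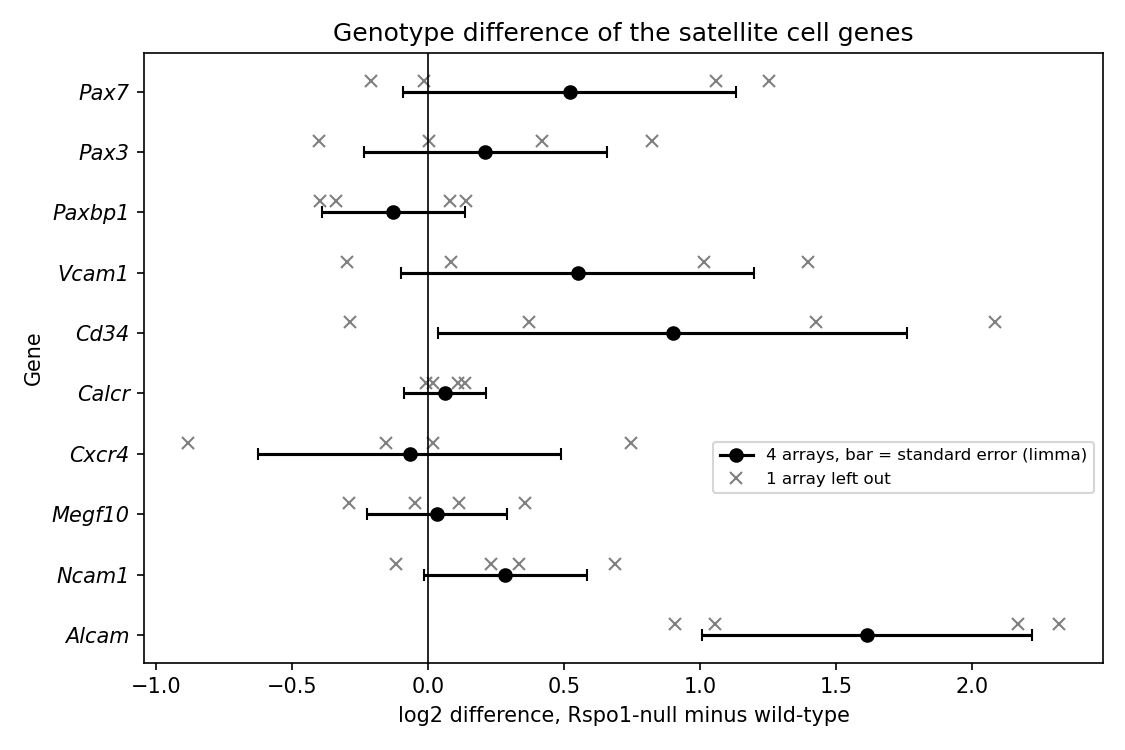
Log2 difference, Rspo1-null minus wild-type (horizontal axis), of each gene over 4 arrays, with bars of 1 standard error from limma and crosses for the 4 fits that leave out 1 array. The Alcam difference of 1.61 stays above 0 in all 4 of these fits, from 0.91 to 2.32. Its groups do not overlap, so this sign was fixed beforehand and is no added support. The crosses of Pax7, Paxbp1, Vcam1, Cd34, Cxcr4, Megf10 and Ncam1 fall on both sides of 0. Pax3 and Calcr, with both means below background, are drawn with no direction to be read.

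Vcam1, the receptor for the integrin formed by Itga4 and Itgb1 and a common sorting marker of satellite cells, had 7.93 and 7.00 in the Rspo1-null arrays, against 6.07 and 7.77 in the wild-type arrays. Its groups overlapped in the same way as those of Pax7, with wild-type 1 lowest and Rspo1-null 1 highest. The difference was 0.55 (standard error 0.65, adjusted p = 0.999 from limma), with 0.17 in the Xist pair and 0.93 in the other pair, and it turned to -0.30 without wild-type 1. Itga4 had 5.01 and 6.07 in the Rspo1-null arrays and 5.86 and 4.25 in the wild-type arrays, so it was low where Vcam1 was high. Itgb1, the shared beta chain, lay between 9.44 and 9.46 in all 4 arrays. Adam17, a protease that sheds Vcam1 from the surface, differed by -0.03 (standard error 0.24).

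Cd34, a sialomucin of quiescent satellite cells that endothelial and blood progenitors also carry, had 7.22 and 4.85 in the Rspo1-null arrays, against 4.60 and 5.66 in the wild-type arrays. Rspo1-null 1 stood apart from the other 3 arrays, and wild-type 1 lay below background. The difference was 0.90 (standard error 0.86, adjusted p = 0.999 from limma), with 1.56 in the Xist pair and 0.24 in the other pair, and it turned to -0.29 without Rspo1-null 1. Without Rspo1-null 2 it was 2.08. Markers of cells that can carry Cd34 shared its highest array only in part. Thy1 had 6.27 and 5.20 in the Rspo1-null arrays and 5.67 and 5.12 in the wild-type arrays, and Rgs5, a gene of pericytes, had 6.65 and 4.64 in the Rspo1-null arrays and 5.80 and 5.14 in the wild-type arrays. Both were highest in Rspo1-null 1 and next highest in wild-type 1, where Cd34 was lowest. Notch3 of pericytes and smooth muscle and the fibroblast genes Cd248, Col3a1 and Col1a1 were also highest in Rspo1-null 1, whereas Col1a2 was highest in Rspo1-null 2. The pericyte genes Cspg4 (4.71 and 5.60 in the Rspo1-null arrays, 5.60 and 5.61 in the wild-type arrays) and Abcc9 (5.28 and 5.60 in the Rspo1-null arrays, 5.94 and 5.86 in the wild-type arrays) were lowest in Rspo1-null 1. So were Vwf of endothelium and Laptm5 of blood cells. The part of such cells in the Cd34 values was not tested. Of 8 endothelial markers only Vwf lay above background, with summed levels of 6.90 and 6.92 in the Rspo1-null arrays and 7.16 and 6.95 in the wild-type arrays. Of 8 blood cell markers Cd68 and Laptm5 did, with sums of 7.28 and 7.66 in the Rspo1-null arrays and 7.81 and 7.33 in the wild-type arrays. The other markers of both lists had means below background, so these sums include background signal and do not measure such cells as such. Of 7 markers of pericytes and smooth muscle 4 lay above background, with sums of 8.01 and 7.68 in the Rspo1-null arrays and 7.93 and 7.81 in the wild-type arrays. In such bulk samples fewer cells of a type and less RNA per cell cannot be told apart.

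Calcr, the calcitonin receptor that keeps satellite cells quiescent, lay below background in all 4 arrays, with 3.17 and 3.26 in the Rspo1-null arrays and 3.23 and 3.08 in the wild-type arrays. Both genotype means, 3.22 and 3.15, were below 4.69, so no fold is given. Of the proteins that couple to it, Ramp3 had 5.10 and 6.02 in the Rspo1-null arrays and 5.67 and 4.84 in the wild-type arrays. Its groups overlapped, with a difference of 0.31 (standard error 0.43). Ramp1 differed by -0.02 (standard error 0.18), and the mean of Ramp2 lay below background. Col5a1 and Col5a3, chains of a collagen that binds Calcr on satellite cells, differed by -0.14 (standard error 0.18) and -0.09 (standard error 0.17).

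Cxcr4, the receptor for the chemokine Cxcl12 in migrating muscle progenitors, had 7.45 and 7.63 in the Rspo1-null arrays, against 8.42 and 6.79 in the wild-type arrays. Both Rspo1-null values lay between the wild-type values, and the difference was -0.07 (standard error 0.56, adjusted p = 1 from limma). It was 0.66 in the Xist pair and -0.79 in the other pair, so the pairs went opposite ways. It was 0.75 without wild-type 1 and -0.88 without wild-type 2, so its sign hung on which wild-type array was kept. Its ligand Cxcl12 had 8.99 and 8.02 in the Rspo1-null arrays, against 6.03 and 8.37 in the wild-type arrays. Wild-type 1 was thus the lowest array for Cxcl12 and the highest for Cxcr4. The Cxcl12 difference was 1.31 (standard error 0.84, unadjusted p = 0.186 from limma), with 0.62 in the Xist pair and 1.99 in the other pair. With the pairs as a block its unadjusted p was 0.0217 and its adjusted p 0.814 from limma. Ackr3, the second receptor for Cxcl12, had 7.22 and 6.96 in the Rspo1-null arrays, against 7.68 and 7.36 in the wild-type arrays. Its groups did not overlap, and its difference was -0.43 (standard error 0.19, unadjusted p = 0.0841 from limma).

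Megf10, a receptor with epidermal growth factor repeats that acts in satellite cell proliferation, had 8.22 and 8.86 in the Rspo1-null arrays, against 8.43 and 8.59 in the wild-type arrays. Both wild-type values lay between the Rspo1-null values, and the difference was 0.03 (standard error 0.26, adjusted p = 1 from limma). The pairs again went opposite ways, with -0.37 in the Xist pair and 0.43 in the other pair. Its relatives Megf11 and Pear1 had means below background. Notch1, a receptor of the pathway that Megf10 is known to act with, differed by 0.28 (standard error 0.40).

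Ncam1, the neural cell adhesion molecule that myoblasts keep as they fuse, had 10.62 and 11.42 in the Rspo1-null arrays, against 10.79 and 10.68 in the wild-type arrays. Rspo1-null 2 stood above the other 3 arrays, and the difference was 0.28 (standard error 0.30, adjusted p = 0.999 from limma). It was -0.066 in the Xist pair and 0.64 in the other pair. Without Rspo1-null 1 it was 0.69, and without Rspo1-null 2 it was -0.12. St8sia2 and St8sia4, the enzymes that attach polysialic acid to Ncam1, differed by -0.27 (standard error 0.26) and -0.10 (standard error 0.27). Gfra1, its partner in binding the growth factor Gdnf, had 6.22 and 6.79 in the Rspo1-null arrays and 6.45 and 5.47 in the wild-type arrays. Its difference was 0.54 (standard error 0.40, unadjusted p = 0.234 from limma). With the Xist pairs as a block its unadjusted p was 0.0353 and its adjusted p 0.814 from limma. Fgfr1, another receptor that Ncam1 engages, differed by 0.24 (standard error 0.20). Schwann cells carry Ncam1 too, and of 5 of their markers only Erbb3 lay above background, at 6.39 and 8.54 in the Rspo1-null arrays and 8.48 and 6.55 in the wild-type arrays. The summed level of these 5 markers was 7.07 and 8.75 in the Rspo1-null arrays and 8.70 and 7.25 in the wild-type arrays. Erbb3 made up most of each sum and, like Myog, was lower in both arrays with Xist than in both others. The sums thus do not measure Schwann cells as such, and the part of these cells in the Ncam1 values was not tested.

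Of 25 ligands, receptors, modifying enzymes and relatives of the surface proteins, 0 passed an unadjusted p of 0.05 in either direction, 16 lay above background, and their median difference was -0.03, equal to that of all genes tested to this precision. With the Xist pairs as a block, Cxcl12 and Gfra1 passed, where 5.35% of all genes did, and both had an adjusted p of 0.814 from limma. Mcam and Cd6, which belong beside Alcam as relative and ligand, differed by -0.03 (standard error 0.20) and -0.05 (standard error 0.15). Of 26 further genes of satellite cells and myoblasts, 1 passed as higher and 0 as lower in limma, close to the 3.17% of all genes, with a median of -0.15. In this list the groups did not overlap in 2 genes that were higher and 7 that were lower in Rspo1-null cells, against 31.2% of all genes in either direction. The gene that passed was Sdc3, the heparan sulfate proteoglycan syndecan-3 of satellite cells, with 7.81 and 7.92 in the Rspo1-null arrays, against 6.92 and 7.46 in the wild-type arrays. Its groups did not overlap, and its difference was 0.67 (standard error 0.23, unadjusted p = 0.0357 and adjusted p = 0.999 from limma). Among the markers of other cell types Adgre1 of macrophages passed an unadjusted p of 0.05, with -0.49, and all 4 of its values lay below background.

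Most of these genes also differed between the pairs set by Xist. Pax7, Vcam1, Paxbp1 and Cd34 were higher in both arrays with Xist (Rspo1-null 1 and wild-type 2) than in both others, and Cxcr4, Ncam1 and Calcr were lower. Together 7 of the 10 genes parted the arrays in this way, where 42% of all genes did (19.8% higher and 22.2% lower with Xist). Over both arrays with Xist less both others, Pax7 had 1.27, Vcam1 1.31, Cd34 1.71 and Paxbp1 0.48 on the log2 scale, and Cxcr4 had -0.90. Myf5, the myogenic factor of satellite cells and myoblasts, had 8.21 and 6.81 in the Rspo1-null arrays and 5.91 and 8.25 in the wild-type arrays, and so was high in the same arrays as Pax7. Myog, the factor that drives differentiation, had 9.96 and 11.70 in the Rspo1-null arrays and 11.07 and 9.56 in the wild-type arrays, the opposite order. All 12 genes of a list of differentiated muscle were lower in both arrays with Xist, and 6 of 7 genes of cycling cells were higher, among them Mki67 with 6.80 and 5.91 in the Rspo1-null arrays and 5.68 and 6.58 in the wild-type arrays. The part of differentiation state, of cycling and of donor sex in the Pax7, Vcam1 and Cd34 values was not tested.

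**Figure D3:**
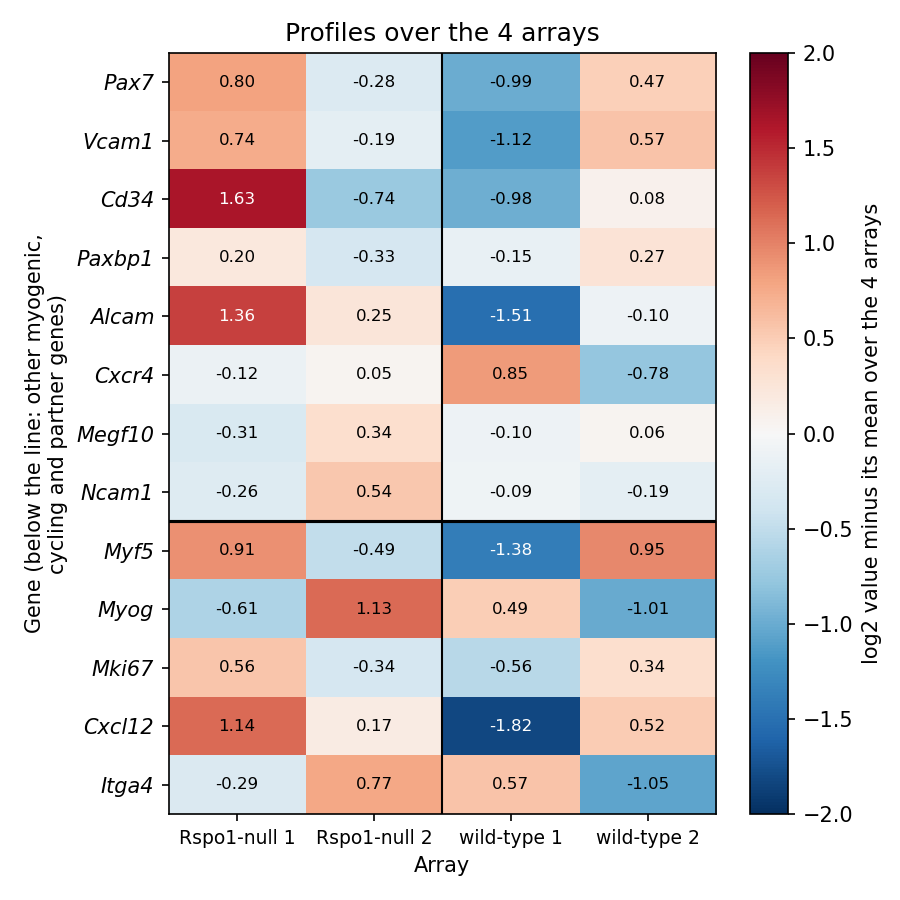
Log2 value of each gene minus its mean over the 4 arrays, with arrays in columns, Rspo1-null left of wild-type, and genes in rows, the lower 5 rows being a myoblast gene, a differentiation gene, a cycling gene and partners of Cxcr4 and Vcam1. Pax7, Vcam1, Paxbp1, Myf5 and Mki67 are above their mean in Rspo1-null 1 and wild-type 2 and below it in the other arrays, and Myog and Itga4 show the reverse.

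Within the 10 genes, the profiles of Pax7 and Vcam1 over the 4 arrays were the closest pair, with a root mean square distance of 0.0977 (log2) after centring each gene on its mean, and those of Megf10 and Ncam1 came next with 0.166. Over 11874 genes above background, the profiles nearest to Pax7 were those of Mpzl1, Snora69 and Csf1, with distances of 0.0711, 0.0833 and 0.0835. With so few arrays many genes come close, and 224 genes lay within 0.3 of Pax7. Csf1, the macrophage growth factor, had 9.79 and 8.77 in the Rspo1-null arrays and 7.91 and 9.60 in the wild-type arrays. Alcam had fewer such neighbors, with 4 genes within 0.3, led by Cdh11 (0.176), Nnat (0.201) and Ptprn (0.269). Cdh11, a cadherin of mesenchymal cells, had 8.88 and 8.21 in the Rspo1-null arrays, against 6.42 and 7.69 in the wild-type arrays. Its likeness to Alcam is what chose it, so its genotype difference adds nothing to that of Alcam. Nnat, which encodes neuronatin, had 7.20 and 6.42 in the Rspo1-null arrays, against 4.81 and 6.24 in the wild-type arrays.

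**Figure D4:**
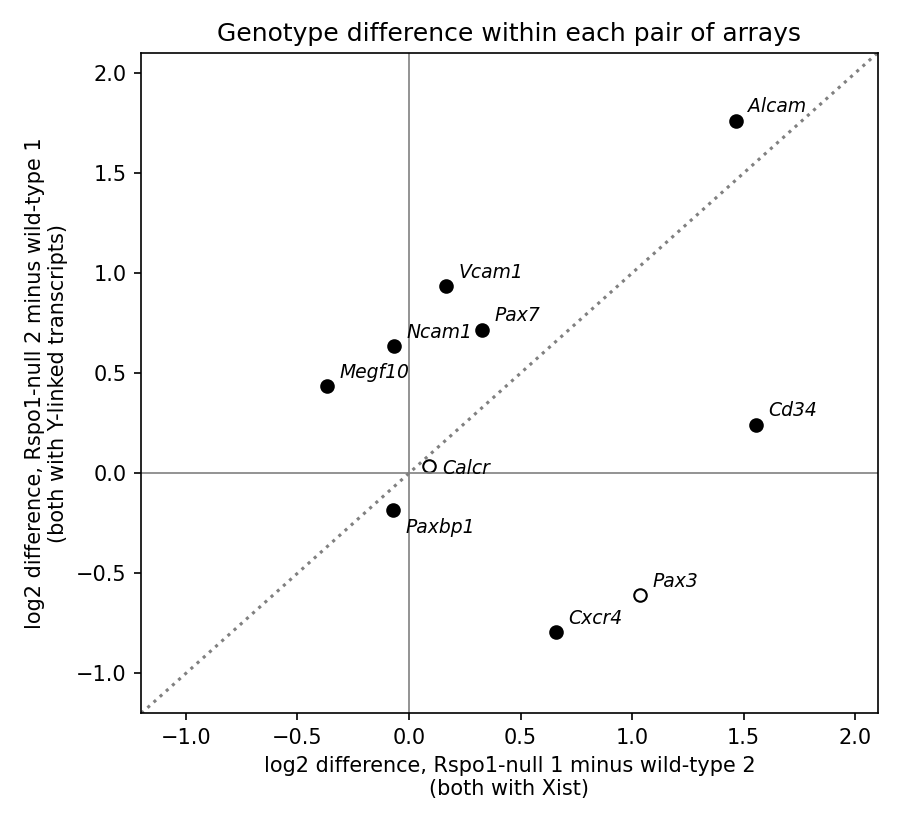
Log2 difference, Rspo1-null minus wild-type, in the pair with Xist (horizontal axis) and in the pair carrying Y-linked transcripts (vertical axis), 1 point per gene, with open points for Calcr and Pax3, which lay at or below background in at least 3 arrays. Alcam lies far above 0 on both axes (1.46 and 1.76), Pax7 and Vcam1 have small positive values on the horizontal axis (0.33 and 0.17), and Cxcr4, Megf10 and Ncam1 differ in sign between the axes.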

How the data were processed

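RNA of 4 cultures was hybridised to GeneChip Mouse Gene 2.1 ST arrays. The authors deposited log2 values, 1 for each gene and array, normalized in R per the supplementary methods, while RMA and Partek are listed by the submitters' processing notes without versions. The genome build and the summary of probes to genes are not given in the sources used here. Genotypes and replicate numbers came from the labels.

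Of 24973 rows, 24015 were named by 1 symbol of the platform's gene table and 958 had none. For 4 symbols with several rows the brightest row by mean was used, which left 24011 genes. Genotypes were compared as Rspo1-null minus wild-type by limma (version 3.58.1, R 4.3.3) with no block term, and p-values were adjusted by Benjamini-Hochberg over all genes. The one-way ANOVA of the supplementary methods was run as an alternative, where 5 genes without spread gave no p. Both were tested on simulated data. The number of arrays limits the precision. Other alternatives were an intensity trend, the replicate number or the pairs set by Xist as a block, 3 normalizations, leaving out dim genes, the mean of a symbol's rows, and leaving out each array.

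Named genes are the 10 members, genes of 13 further lists past an unadjusted p of 0.05 (at most 4 a list), partners above background, checks such as Myog and Mki67, and the 3 profiles nearest to Pax7 and to Alcam. Thy1, Rgs5, Cspg4, Abcc9, Cd248, Col3a1, Erbb3, Vwf, Cd68, Laptm5, Myf5, the other Pax genes, the partners below background and the defining markers of other cell types are not covered by that rule and were picked once their values had been seen. The members and lists were chosen with earlier results of these data known.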

Additional observations from a re-analysis of the deposited data

Results flagged for a closer look

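Groups of 2 arrays are too small to test for a single array far from the rest. In 4 of the 10 genes, of which 3 lay above background, the difference, Rspo1-null minus wild-type, went one way in the arrays with Xist and the other way in the arrays with Y-linked transcripts. This was not tested, since each pair holds 1 array of each genotype. The share of all genes with such opposite signs was not counted, so the 4 genes are not shown to stand out. Cxcr4 had 0.66 with Xist and -0.79 without. Megf10 had -0.37 with Xist and 0.43 without. Ncam1 had -0.066 with Xist and 0.64 without. The values of Pax3, 1.03 with Xist and -0.61 without, give no readable direction, since both of its genotype means lay below background.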

How the results depend on the processing

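The count of 1 gene of the 10 past an unadjusted p of 0.05 was 0 in the ANOVA of the methods, with the replicate block and without dim genes, 2 with the Xist pairs as a block (the sex block) and 1 to 3 when 1 array was left out. Over all genes, 760 fell to 400 with the replicate block and to 246 without dim genes, was 1284 with the sex block, and lay between 540 and 1711 on leaving out 1 array (1711 without wild-type 2), with 0 past an adjusted p of 0.05 in each of these fits. The sex block pairs the replicate numbers crosswise. Deviations from the genotype means correlated at -0.358 over genes between arrays of the same number. With 2 arrays per genotype, the crossed pairing must give the same value with opposite sign. Whether the numbers pair the cultures cannot be told from this. Non-overlapping groups were found in 2 genes of the 10 (Alcam and Calcr) after median centring, quantile normalization and cyclic loess, against 31.3%, 29.9% and 30.1% of all genes, and Calcr lay below background in all 4 arrays. The split of the 760 genes, 288 higher and 472 lower, became 435 and 317 after median centring, 303 and 362 after quantile normalization and 346 and 337 after cyclic loess. Megf10 turned to -0.053 after quantile normalization and -0.042 after cyclic loess. The causes of these changes were not tested.

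With 1 array left out, where the lone array is assumed to vary like the other genotype, the differences ranged from -0.21 to 1.25 for Pax7, -0.40 to 0.82 for Pax3, -0.40 to 0.14 for Paxbp1, -0.30 to 1.40 for Vcam1, -0.29 to 2.08 for Cd34, -0.0086 to 0.14 for Calcr, -0.88 to 0.75 for Cxcr4, -0.29 to 0.36 for Megf10, -0.12 to 0.69 for Ncam1 and 0.91 to 2.32 for Alcam, where Pax3 and Calcr lay below background and their values have no readable direction. Of 88 other values of single genes, 82 kept their direction and side of the threshold. The ANOVA, the intensity trend, the blocks, the mean of rows and leaving out dim genes do not alter the difference itself. Direction could thus change only under the normalizations, where it reversed in 2 values, both of Megf10. The 82 values are therefore no measure of how stable the directions are. The count of 8 genes above background did not leave a factor of 1.5 at the 90th or 99th percentile.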
